A study of Mus musculus with 24 samples.

Results

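The libraries compared here are 10 of the 24 bulk RNA-seq libraries of a mouse brain series: the 5 with the highest and the 5 with the lowest level of Drd1, the dopamine D1 receptor gene, among the 16 libraries whose count column carries a number that is not a multiple of 3. Levels are given as CPM, the count of a gene after scaling the summed counts of its library to 1000000. The high set held E4-10 libraries 4 and 3, E4-05 library 1, E3-05 library 1 and E3-15 library 1. The low set held E3-05 library 3, E3-10 library 2, E3-05 library 4, E4-05 library 2 and E3-15 library 2. Values of a set are given below in these orders unless stated otherwise. The other 6 of the 16 libraries lay between the sets and are called the middle set.

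A library code joins an E code (E3 or E4) and a time code (05, 10 or 15), which make 6 groups of 4 libraries, and the number 1 to 4 comes from the library name. The labels do not spell the codes out, and the series title concerns ApoE4. No strain, age, sex, treatment or allele is given, and the sole tissue term is brain, so that the region dissected for each library is not given in the sources used here. Replicates are called biological, but nothing says that each came from a separate animal, and p-values measure only the spread between these libraries. Titles also name 1 of 6 months for each library.

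The striatum is the input nucleus of the basal ganglia, and nearly all of its neurons are GABAergic medium spiny neurons (MSNs). Direct-pathway MSNs carry the D1 receptor with the peptides substance P and dynorphin, and indirect-pathway MSNs carry an adenosine receptor, the D2 receptor and enkephalin. Both kinds signal through the G protein subunit Golf, adenylyl cyclase 5 and DARPP-32, and sparse cholinergic interneurons lie among them.

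Drd1 chose the libraries, and its values are given here as a description only. It had 113, 88.1, 85.9, 78.5 and 62.8 CPM in the high set, and 31.6, 27.9, 24.3, 23.0 and 10.1 CPM in the low set. The mean was 85.7 ± 18.4 CPM in the high set and 23.4 ± 8.14 CPM in the low set (SD, n = 5 each), a ratio of 3.67. Just inside the upper limit lay E3-15 library 1 at 62.8 CPM and just outside it E4-15 library 3 at 45 CPM. At the lower limit E3-05 library 3 was inside at 31.6 CPM and E4-05 library 4 outside at 34.8 CPM. The gap at the lower limit was thus much narrower than at the upper one. The 8 libraries whose column number is a multiple of 3 had 0.853 to 2.78 CPM of Drd1. Those 8 had 87.7 to 556 CPM of Gabra6, a receptor subunit gene of cerebellar granule cells, and the 16 had 0 to 4.42 CPM.

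**Figure D1:**
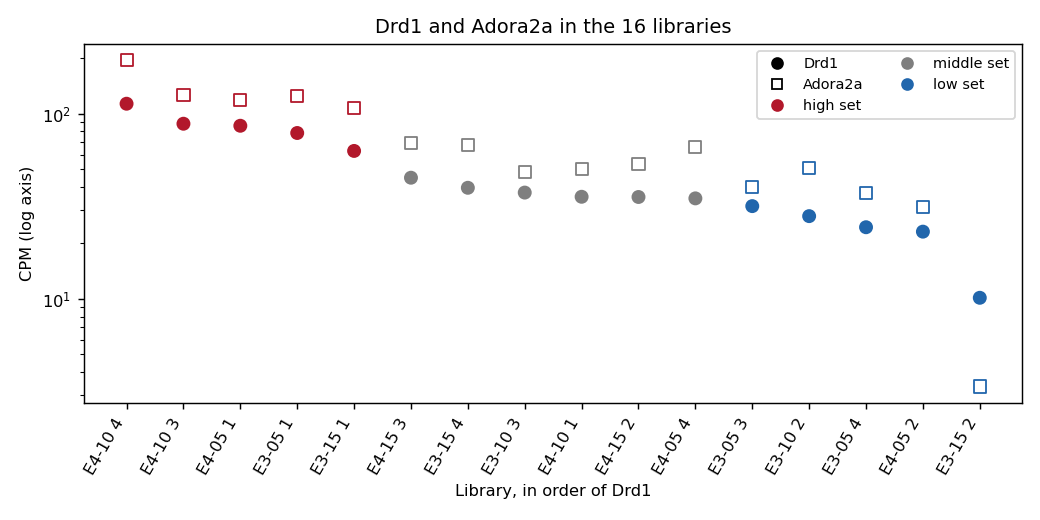
CPM (log axis) of Drd1 (filled circles) and Adora2a (open squares) in each of the 16 libraries, in descending order of Drd1, coloured by high, middle and low set. Adora2a lay above Drd1 in 15 libraries and below it in E3-15 library 2, where it had 3.35 CPM.

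Adora2a encodes the adenosine receptor of indirect-pathway MSNs and was not used to choose the libraries. It had 194, 126, 119, 125 and 107 CPM in the high set, and 39.9, 50.9, 37.3, 31.2 and 3.35 CPM in the low set. The sets did not overlap, and its log2 fold change, high minus low, was 2.04 (SE 0.47). It missed the threshold (adjusted p = 0.0583, edgeR quasi-likelihood test with Benjamini-Hochberg adjustment over all genes tested). Without E3-15 library 2 the log2 fold change was 1.76 and the edgeR adjusted p 0.00278. When any other single library was left out, Adora2a still missed the threshold. Its edgeR adjusted p then ran from 0.0518 (without E3-15 library 1) to 0.168 (without E4-10 library 4). Drd1 was 0.528 to 0.791 of Adora2a in CPM in 15 of the 16 libraries and 3.01 of it in E3-15 library 2. That library was the lowest of the 16 for 36 of 52 listed MSN genes, and E4-10 library 4 the highest for 32.

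Total counts (M, units of 1000000) were 42.5 to 52.4 M in the high set and 38.2 to 99.5 M in the low set, and TMM factors over the 10 libraries ran from 0.952 to 1.045. Hbb-bs, a beta globin gene of red cells, was above 100 CPM in 2 high libraries (173 CPM in E4-05 library 1 and 139 CPM in E3-05 library 1), and in the others it had 2.81 to 19.4 CPM. Gh, the growth hormone gene of the anterior pituitary, had 7057 CPM in E3-05 library 4 of the low set and 0.26 to 74.6 CPM in the others. Some of the counts below are repeated without these libraries.

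Of 18219 genes tested, 261 were called at an adjusted p under 0.05 (1.43%): 200 were higher in the high set (1.10%) and 61 lower (0.335%). At an unadjusted p under 0.05 there were 2157 genes (11.8%). The sets did not overlap for 1.96% of genes in the higher and 0.993% in the lower direction. DESeq2 called 2.22% higher and 1.23% lower, and limma-voom 0.982% higher and 0.313% lower. Because the libraries were picked on a measured gene, these calls describe which genes go with that choice, not a treatment. Without the 2 libraries high in Hbb-bs, 66 genes were higher (0.350%) and 10 lower (0.0531%). Without the library high in Gh, 155 were higher (0.837%) and 95 lower (0.513%). With libraries ranked by Adora2a instead, which exchanged 1 low library, 139 were higher (0.765%) and 26 lower (0.143%). Without E4-10 library 4, 93 were higher and 23 lower, and without E3-15 library 1, 258 were higher and 128 lower. The total was 146 without E3-05 library 1, 130 without E4-05 library 2, 159 without E3-10 library 2 and 159 without E3-15 library 2. With 8 libraries a set, taking in the middle ones, edgeR called 0 (1664 at an unadjusted p under 0.05, smallest adjusted p 0.0842), and with the library number as a block it called 2.

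MSN genes were higher in the high set in nearly every case. Of the 52 genes in 5 MSN lists, 50 had a log2 fold change above 0, as had 49.7% of all genes, and the median was 1.13, against 0.00 over all genes. The test called 35 of the 52 higher, with none lower, beside 1.10% of all genes; DESeq2 called 43 higher and 1 lower. Nothing is read from that share, because Drd1 marks the same cells. In bulk tissue, a smaller number of these cells and less RNA per cell cannot be told apart. The mean log2(CPM + 1) of the 52 genes was 6.07 to 6.56 in the high set, 5.43 to 5.74 in the middle set and 4.46 to 5.38 in the low set. In the low set E3-15 library 2 stood at 4.46 and the other 4 libraries at 5.16 to 5.38. The 8 libraries of the multiples of 3 had 3.80 to 4.36, with a median of 3.87, all under that library. The calls numbered 19 without the libraries high in Hbb-bs, 32 without the one high in Gh and 21 without E4-10 library 4.

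Of the 14 signalling genes 13 were called, with a median log2 fold change of 1.18. Rgs9 encodes the regulator of G protein signalling that shortens dopamine and opioid receptor responses in striatum. It had 242, 168, 147, 166 and 135 CPM in the high set, and 61.1, 65.9, 53.1, 50.8 and 19.1 CPM in the low set (log2 fold change 1.78, SE 0.27, edgeR adjusted p = 0.0101). Every high library lay above every low one, and the middle set had 67.5 to 104 CPM.

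Ppp1r1b encodes DARPP-32, the phosphatase inhibitor that integrates dopamine signals in MSNs. Its levels were 602, 488, 386, 428 and 366 CPM in the high set, and 144, 204, 151, 132 and 48.0 CPM in the low set (log2 fold change 1.75, SE 0.29, edgeR adjusted p = 0.0135). Pde10a, the dual phosphodiesterase concentrated in striatum, had 950, 700, 496, 627 and 420 CPM in the high set, and 205, 236, 219, 196 and 102 CPM in the low set. The sets were apart for both genes, with Pde10a at a log2 fold change of 1.74 (SE 0.25). Genes of Golf signalling were called too. Adcy5, adenylyl cyclase 5, had a log2 fold change of 1.24 (SE 0.19), Gng7, its partner gamma subunit, 1.33 (SE 0.19), and Gnal, the Golf alpha subunit, 0.82 (SE 0.10). Gnal averaged 414 ± 41.2 CPM in the high set and 234 ± 32.8 CPM in the low set (SD, n = 5 each). Pde1b, a calmodulin-regulated phosphodiesterase, had 748, 557, 520, 531 and 489 CPM in the high set, and 265, 282, 260, 238 and 172 CPM in the low set. Its log2 fold change was 1.23 (SE 0.14, edgeR adjusted p = 0.00687). Rasd2, the small GTPase Rhes, was called at 1.36, Rasgrp2, a Ras family exchange factor, at 1.14, Pde7b, a cAMP phosphodiesterase, at 0.98, and Arpp21, a cAMP-regulated phosphoprotein, at 0.82. Dgkb, a diacylglycerol kinase (0.71), and Ptpn5, the striatum-enriched phosphatase STEP (0.66), made up the low end of the called members. Ngef, a guanine nucleotide exchange factor, was the member not called (0.60, SE 0.18, edgeR adjusted p = 0.177).

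Of 10 receptors 4 were called, and the median log2 fold change was 1.47. Gpr52, an orphan receptor of indirect-pathway MSNs, had 50.5, 39.3, 43.4, 37.1 and 33.0 CPM in the high set, and 17.1, 16.1, 15.2, 16.6 and 7.68 CPM in the low set (1.48, SE 0.19, edgeR adjusted p = 0.00687). Drd2, the D2 receptor, had 118, 81.0, 65.5, 77.0 and 62.4 CPM in the high set, and 26.0, 27.7, 32.8, 24.0 and 6.81 CPM in the low set (1.79, SE 0.32, edgeR adjusted p = 0.0179). Both genes kept the sets apart. Gpr6, an indirect-pathway orphan receptor, was called with a log2 fold change of 1.94. Chrm4, the muscarinic M4 receptor of direct-pathway MSNs, had 63.8, 69.1, 44.6, 53.2 and 40.2 CPM in the high set, and 33.6, 51.4, 31.3, 31.1 and 33.2 CPM in the low set. Its sets overlapped (0.59, SE 0.18, edgeR adjusted p = 0.177). The mu opioid receptor gene Oprm1 (0.25) and the cannabinoid receptor gene Cnr1 (0.54), which other forebrain neurons also use, were not called either.

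All 3 peptide precursors were called. Penk, the enkephalin precursor, had 741, 473, 534, 490 and 484 CPM in the high set, and 259, 231, 159, 156 and 41.4 CPM in the low set (1.68, SE 0.36, edgeR adjusted p = 0.0409). For Tac1, the substance P precursor, the values were 79.9, 58.1, 108, 67.6 and 77.7 CPM in the high set, and 46.9, 33.5, 27.0, 23.0 and 14.1 CPM in the low set (1.42, SE 0.25, edgeR adjusted p = 0.0173). Pdyn, the dynorphin precursor, averaged 69.3 ± 16.0 CPM in the high set and 31.6 ± 9.54 CPM in the low set (1.12, SE 0.20). The highest library was E4-10 library 4 for Penk, and E4-05 library 1 for Tac1 and Pdyn.

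The indirect-pathway list (6 genes) had a median log2 fold change of 1.74 with 5 members called, and the direct-pathway list (8 genes) 0.86 with 3 called. The direct-pathway list does not hold Drd1, which chose the libraries. The difference between the lists was not tested. Beside it stands E3-15 library 2, whose mean log2(CPM + 1) was 2.92 for the indirect list and 3.62 for the direct list. The other 4 low libraries had 4.52 to 4.91 for the indirect list, and 3.96 to 4.43 for the direct list. Among direct-pathway genes, Isl1, a factor of direct-pathway and cholinergic neurons, had a log2 fold change of 1.67 and missed the threshold (edgeR adjusted p = 0.121). Ebf1, another factor of that pathway, had 16.0, 12.1, 12.4, 10.9 and 13.6 CPM in the high set, and 10.5, 15.2, 16.6, 10.5 and 16.4 CPM in the low set (-0.09, SE 0.15). The 8 libraries of the multiples of 3 had 44.8 to 90.2 CPM of Ebf1. Eya1, a transcriptional coactivator, ran the other way, with 5.96 to 10.3 CPM in the high set and 11.0 to 13.3 CPM in the low set. Its sets did not overlap, and it was not called by edgeR (-0.50, SE 0.14, edgeR adjusted p = 0.135).

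Of 12 transcription factors 6 were called, with a median log2 fold change of 0.84. Rxrg, a retinoid X receptor of striatum, had 82.5, 55.7, 40.7, 49.6 and 36.5 CPM in the high set, and 16.8, 18.0, 18.3, 13.1 and 3.00 CPM in the low set (1.94, SE 0.38, edgeR adjusted p = 0.0275). Rarb, the retinoic acid receptor beta, had a log2 fold change of 1.56 (SE 0.23) with no overlap. Bcl11b, the factor CTIP2 of MSNs and deep-layer cortical neurons, had 0.75 (SE 0.13), and Foxp2, shared with deep cortex, 0.63 (SE 0.11). Meis2, a homeobox factor of the ganglionic eminence lineage, was called at 0.93 and Sp9, a zinc finger factor needed for indirect-pathway MSNs, at 1.06. Foxp1, shared with cortex too, was not called (0.67, SE 0.16, edgeR adjusted p = 0.0735). Among channels and other MSN genes 9 of 13 were called, with a median of 1.40. Syndig1l, a synapse differentiation protein of striatum, had 172, 117, 71.6, 98.2 and 87.3 CPM in the high set, and 27.8, 47.4, 35.2, 34.0 and 15.4 CPM in the low set (1.78, SE 0.29, edgeR adjusted p = 0.0120). Slc35d3, a nucleotide sugar transporter family member that affects D1 receptor trafficking, had 23.1, 17.0, 20.6, 19.2 and 19.5 CPM in the high set, and 9.32, 7.95, 7.08, 5.33 and 1.97 CPM in the low set (1.64, SE 0.29). High libraries lay above all low ones for both. The called genes also included Ido1, a tryptophan-degrading enzyme (1.90), Sh3rf2, a scaffold protein with SH3 domains (1.97), Scn4b, the sodium channel beta 4 subunit (1.54), Actn2, an actin cross-linker (1.47), and Strip2, which was called at 1.02 (SE 0.12) and had 103 to 221 CPM in the 8 libraries of the multiples of 3.

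Cholinergic genes were among the largest increases outside the MSN lists. Of 8 listed genes of striatal and basal forebrain cholinergic neurons 5 were called higher, beside 1.10% of all genes. Their median log2 fold change was 1.91. Slc5a7, the high-affinity choline transporter, had 30.7, 20.1, 36.0, 21.1 and 31.4 CPM in the high set, and 12.3, 8.39, 5.45, 5.11 and 2.91 CPM in the low set (2.00, SE 0.31, edgeR adjusted p = 0.0101). Chat, choline acetyltransferase, had 16.7, 10.1, 16.5, 13.2 and 15.1 CPM in the high set, and 8.07, 5.15, 3.36, 2.47 and 0.917 CPM in the low set (1.82, SE 0.40, edgeR adjusted p = 0.0469). Neither gene overlapped between the sets. In the middle set Chat spanned 4.79 to 13.2 CPM and Slc5a7 6.90 to 25.2 CPM, so that both ranges reached into the values of the high and the low libraries. The 8 libraries of the multiples of 3 had 0.912 to 16.4 CPM of Chat and 2.61 to 69.1 CPM of Slc5a7. The count of called members was 2 without the libraries high in Hbb-bs and 2 without the library high in Gh. It was also 2 when E3-05 library 1, E4-05 library 1, E4-05 library 2, E3-10 library 2, E4-10 library 4 or E3-15 library 1 was left out alone. The count was 1 with E code and time code as terms. It was 0 with 8 libraries a set, with the library number as a block and with the title's month as a term. All 8 log2 fold changes stayed above 0 in each of these fits.

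Slc18a3, the vesicular acetylcholine transporter, was called at 2.02 (SE 0.43) with 8.72, 4.68, 8.67, 6.72 and 8.78 CPM in the high set, and 3.77, 2.08, 1.76, 1.13 and 0.321 CPM in the low set. The libraries of the multiples of 3 had 1.09 to 25.1 CPM of it. The gene lies inside the Chat locus on the same strand, so that strand cannot tell reads of the overlapping transcripts apart. The windows around the starts of both genes are printed because the genes share that locus. With them stand those of Tac1 and Rgs9, MSN genes that were called. Each window runs from 250 bases before to 50 after the annotated start (RefSeq, GRCm38.p6, an older build than that of the counts), 5′ to 3′ on the strand of the gene. Capitals mark the letters TGACG or its reverse complement CGTCA, the half-site of the factor CREB. Chat (chr14:32465860-32466159, minus strand), Slc18a3 (chr14:32464801-32465100, minus strand), Tac1 (chr6:7554811-7555110, plus strand) and Rgs9 (chr11:109298132-109298431, minus strand) read:
Chat: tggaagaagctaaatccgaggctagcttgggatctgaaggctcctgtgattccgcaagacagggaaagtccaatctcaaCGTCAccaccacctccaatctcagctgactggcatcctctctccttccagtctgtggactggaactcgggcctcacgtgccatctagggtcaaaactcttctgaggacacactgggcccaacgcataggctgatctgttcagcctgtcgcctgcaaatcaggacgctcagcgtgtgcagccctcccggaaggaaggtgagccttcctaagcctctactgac
Slc18a3: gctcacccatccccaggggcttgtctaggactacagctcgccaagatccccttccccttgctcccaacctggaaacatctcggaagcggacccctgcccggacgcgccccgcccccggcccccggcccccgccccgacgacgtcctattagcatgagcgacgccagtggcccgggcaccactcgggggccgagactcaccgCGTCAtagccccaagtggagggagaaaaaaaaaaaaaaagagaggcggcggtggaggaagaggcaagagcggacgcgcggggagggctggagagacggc
Tac1: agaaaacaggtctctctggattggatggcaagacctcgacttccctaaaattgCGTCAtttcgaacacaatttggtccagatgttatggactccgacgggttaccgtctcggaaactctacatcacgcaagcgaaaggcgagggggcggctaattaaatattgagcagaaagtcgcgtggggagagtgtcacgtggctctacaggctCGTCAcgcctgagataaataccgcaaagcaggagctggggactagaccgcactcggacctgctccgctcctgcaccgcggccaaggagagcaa
Rgs9: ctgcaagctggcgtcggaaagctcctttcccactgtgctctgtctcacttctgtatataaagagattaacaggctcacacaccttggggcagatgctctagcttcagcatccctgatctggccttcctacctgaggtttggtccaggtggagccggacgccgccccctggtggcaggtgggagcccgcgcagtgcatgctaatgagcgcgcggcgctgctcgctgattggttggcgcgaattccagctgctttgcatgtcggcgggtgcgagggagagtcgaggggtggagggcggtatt
The starts of Chat and Slc18a3 lie 1059 bases apart on the same strand. Chat and Slc18a3 each hold 1 half-site, Tac1 holds 2 and Rgs9 holds 0. Of the 35 MSN genes called higher, 25 had a window, and 5 of these held the half-site (20.0%). Of the 27025 genes with a window in the table, 6228 held it in at least 1 window (23.0%), as did 20.8% of all 32851 windows.

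**Figure D2:**
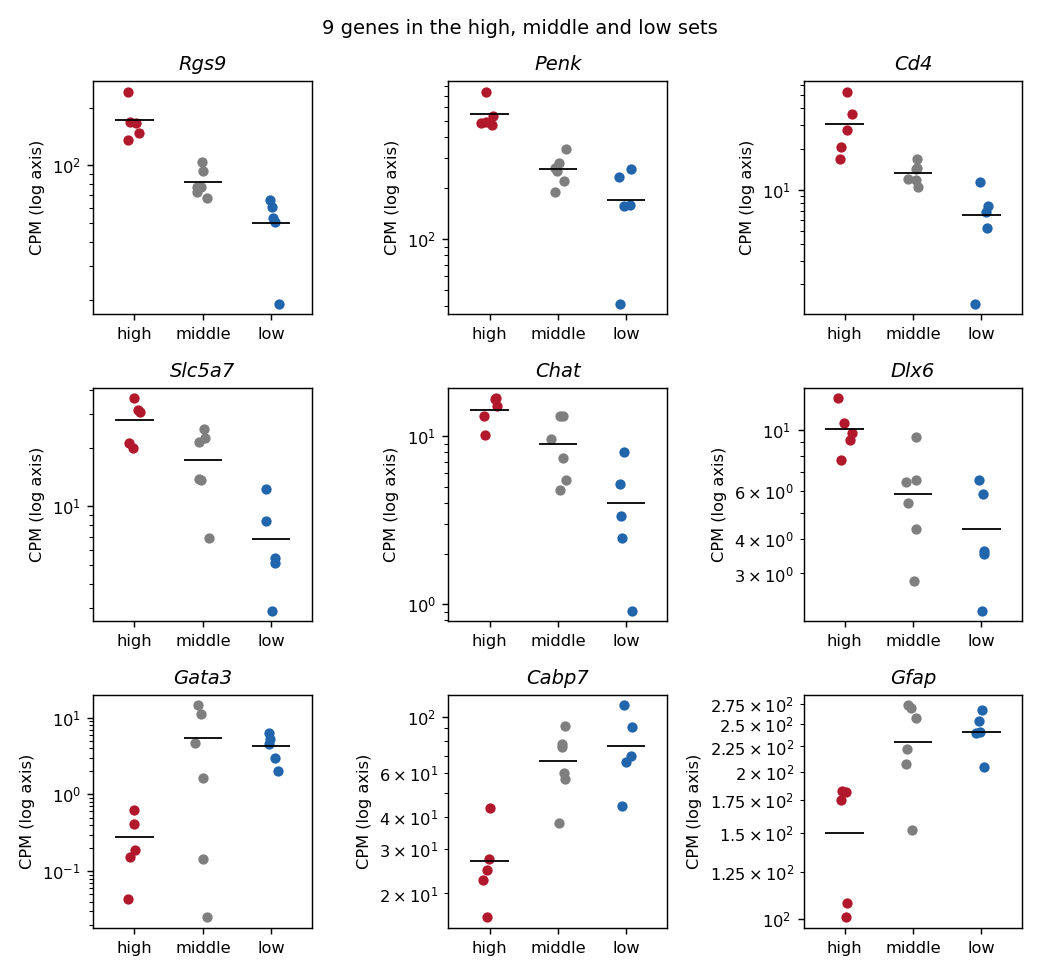
CPM (log axis) of 9 genes in the high (left), middle and low (right) sets, with 1 point a library and a line at the mean of each set. Rgs9, Penk and Cd4 step down from high over middle to low, Gata3 spreads over the whole range in the middle set, and Cabp7 and Gfap have their lowest means in the high set.

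The 12 largest increases outside the MSN lists, by the rule for named genes, included Slc5a7, Chat, Slc18a3 and the genes that follow. Cd4, the T cell coreceptor, had 53.3, 36.4, 16.8, 27.5 and 20.9 CPM in the high set, and 5.26, 11.4, 6.87, 7.56 and 1.44 CPM in the low set (2.25, SE 0.44, edgeR adjusted p = 0.0271). Ptpn7, a tyrosine phosphatase known from blood cells, was at 3.67 ± 1.58 CPM in the high set and 0.789 ± 0.374 CPM in the low set (2.20, SE 0.39). Serpina9, a serpin family gene, had 19.1, 15.0, 16.5, 14.4 and 10.9 CPM in the high set, and 4.32, 4.00, 2.99, 2.49 and 0.504 CPM in the low set (2.39, SE 0.38, edgeR adjusted p = 0.0114). For Cd4 and Serpina9 the middle libraries lay at 10.5 to 16.8 CPM and 4.75 to 8.26 CPM, between the means of the sets. The olfactory receptor gene Olfr1393 (1.97) and the predicted genes Gm39043 (2.97), Gm33651 (2.43), Gm34081 (2.09) and Gm6713 (2.07) were called as well. These 5 genes had 1.02 to 5.27 CPM in the high set and at most 1.05 CPM in the low set.

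Of 8 genes of GABAergic neurons in general, 2 were called higher, beside 1.10% of all genes. All 8 had a log2 fold change above 0, as had 49.7% of all genes, with a median of 0.58. Dlx6, a homeobox factor of forebrain GABAergic neurons, had 13.0, 7.75, 10.6, 9.15 and 9.71 CPM in the high set, and 6.56, 5.82, 3.62, 3.54 and 2.20 CPM in the low set (1.19, SE 0.25, edgeR adjusted p = 0.0383). Slc32a1, the vesicular GABA transporter, averaged 219 ± 33.4 CPM in the high set and 146 ± 25.5 CPM in the low set (0.58, SE 0.12, edgeR adjusted p = 0.0367), with overlapping sets. The median of 10 genes of cortical and hippocampal interneurons was 0.02, and edgeR called 0 of them (1 at an unadjusted p under 0.05, 1 by DESeq2). Among 9 olfactory bulb genes tested, 1 was called higher, beside 1.10% of all genes. It was Sp8, a zinc finger factor of bulb interneurons (1.24, SE 0.25). The list's median was 0.43, with 7 above and 2 below 0. Its mean log2(CPM + 1) overlapped, with 2.07 to 3.19 in the high set and 2.29 to 2.53 in the low set.

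**Figure D3:**
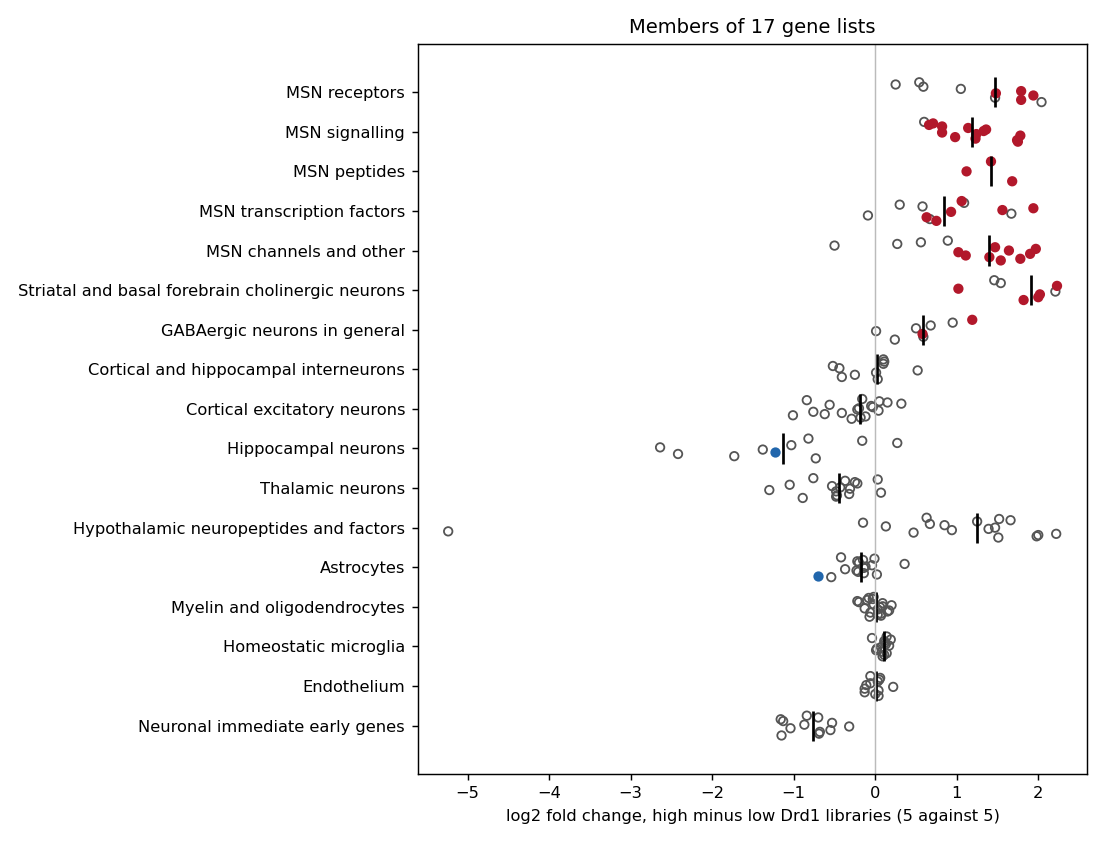
Log2 fold change, high minus low, of the members of 17 gene lists (5 against 5 libraries), with 1 circle a gene, filled red where called higher and blue where called lower, and a black line at the list's median. Of the MSN genes 50 of 52 lie to the right of 0, as do all 8 cholinergic genes, while 9 of 10 hippocampal and 12 of 12 immediate early genes lie to the left, and medians of myelin, microglial and endothelial genes are 0.01, 0.11 and 0.01.

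The genes called lower in the high set included those of the transcription factors Gata3, Tal1, Pax7, Pou4f1 and Tfap2b. The list of midbrain and brainstem monoamine neurons, which holds none of them, had a median log2 fold change of -0.13 over 9 genes tested, 4 above and 5 below 0, and edgeR called 0 (0 at an unadjusted p under 0.05, DESeq2 0). Gata3, which with Tal1 specifies GABAergic neurons of midbrain and brainstem, had 0.188, 0.153, 0.409, 0.0434 and 0.621 CPM in the high set, and 3.00, 4.55, 6.26, 1.99 and 5.27 CPM in the low set (-3.91, SE 0.50, edgeR adjusted p = 0.00687). Tal1 had 2.92, 2.71, 2.14, 2.43 and 3.44 CPM in the high set, and 6.53, 5.92, 9.23, 5.13 and 7.54 CPM in the low set (-1.33, SE 0.18, edgeR adjusted p = 0.00721). The sets did not overlap for either gene, and Tal1 was above 2 CPM in all 10 libraries. The middle set was split: Gata3 had 0.145 and 0.0251 CPM in E4-15 library 3 and E3-15 library 4, and 1.64 to 14.5 CPM in the other 4.

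Pax7, a paired-box factor of dorsal midbrain, had 0.0470, 0.0382, 0.250, 0 and 0.310 CPM in the high set, and 1.41, 4.43, 11.5, 0.805 and 4.15 CPM in the low set (-5.10, SE 0.85, edgeR adjusted p = 0.0135). That is 29 counts in all 5 high libraries and 1184 in the low ones. Pou4f1, a factor of habenula and dorsal midbrain, had a log2 fold change of -3.93 (SE 0.64) with 47 counts in the high set and 841 in the low set. It was the 1 of 8 listed habenula genes called lower, beside 0.335% of all genes. That list had a median of -0.66, with 6 genes below and 2 above 0. Its mean log2(CPM + 1) overlapped, with 2.21 to 2.61 in the high set and 2.35 to 3.45 in the low set. Tfap2b, an AP-2 family factor, averaged 1.53 ± 0.695 CPM in the high set and 6.86 ± 3.10 CPM in the low set (-2.14, SE 0.39). These 3 genes did not overlap between the sets. Their levels ranged widely in the middle set, 0 to 10.8 CPM for Pax7, 0.0502 to 15.0 CPM for Pou4f1 and 1.20 to 20.2 CPM for Tfap2b.

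Other genes among the 12 largest decreases have diverse products. Cabp7, a calcium-binding protein of neurons, had 24.7, 16.1, 27.3, 22.7 and 43.5 CPM in the high set, and 70, 90.7, 44.3, 66.2 and 111 CPM in the low set (-1.53, SE 0.26, edgeR adjusted p = 0.0153). Grp, the gastrin-releasing peptide precursor, had 2.92, 1.93, 3.21, 2.86 and 2.31 CPM in the high set, and 11.7, 8.04, 4.40, 7.02 and 8.94 CPM in the low set (-1.62, SE 0.23, edgeR adjusted p = 0.00852). Neither overlapped. The kallikrein protease gene Klk8 (-1.43), the aldehyde dehydrogenase gene Aldh3a1 (-1.35), the tetraspanin gene Tspan18 (-1.16) and the predicted gene Gm2115 (-1.43) were called as well. Without the libraries high in Hbb-bs, 3 of the 12 largest decreases and 4 of the 12 largest increases were still called, and all 24 kept their sign.

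Hippocampal genes mostly had negative log2 fold changes. Of 10 listed, 9 had a log2 fold change below 0 (50.3% of all genes had), with a median of -1.13. The test called 1 of them lower, beside 0.335% of all genes. That gene was Fibcd1, a transmembrane receptor gene of CA1 pyramidal cells, with 21.7, 15.1, 20.0, 13.8 and 23.2 CPM in the high set, and 48.0, 44.2, 22.9, 41.5 and 60.9 CPM in the low set (-1.23, SE 0.22, edgeR adjusted p = 0.0178). The sets overlapped by 1 library, E3-05 library 4 at 22.9 CPM, and without E3-05 library 1 the gene was not called. The mean log2(CPM + 1) of the list was 3.00 to 3.82 in the high set and 3.46 to 4.70 in the low set. DESeq2 called 5 of the 10 lower, beside 1.23% of all genes. Without the libraries high in Hbb-bs edgeR called 0 of the 10. Without the library high in Gh it called 3 lower, beside 0.513% of all genes. Dcn, the decorin gene, found in meninges and in the claustrum list, was called at -1.03 (SE 0.17).

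Cortical excitatory genes did not separate the sets. Their median log2 fold change was -0.19 over 18 genes, 14 of them below 0, beside 50.3% of all genes. Of these 18, edgeR called 0 (6 at an unadjusted p under 0.05, DESeq2 and limma-voom 0). The 16 thalamic genes had a median of -0.45 with 14 below 0, beside 50.3% of all genes. Of these 16, edgeR called 0 (1 at an unadjusted p under 0.05, DESeq2 0). Within the high set, E3-15 library 1 had a thalamic mean log2(CPM + 1) of 6.12 and the other 4 had 3.76 to 4.82, against 4.71 to 5.84 in the low set. Without that library 2 thalamic genes were called lower and the median was -0.97. The thalamic median was -0.24 without E4-10 library 3, -0.28 without E4-10 library 4, -0.30 without E3-05 library 1, -0.27 without E3-05 library 4 and -1.44 with the library number as a block. Of 17 hypothalamic genes 15 were above 0, beside 49.7% of all genes, with a median of 1.25. Of these 17, edgeR called 0 (3 at an unadjusted p under 0.05, DESeq2 0). That median was 0.74 without E4-05 library 1 and 0.58 without the libraries high in Hbb-bs, and with the library number as a block it was -0.52, with 14 of 17 below 0. Trh, the thyrotropin-releasing hormone precursor, had 8.47 to 36.9 CPM in the high set and 1.05 to 15.2 CPM in the low set, which overlap.

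**Figure D4:**
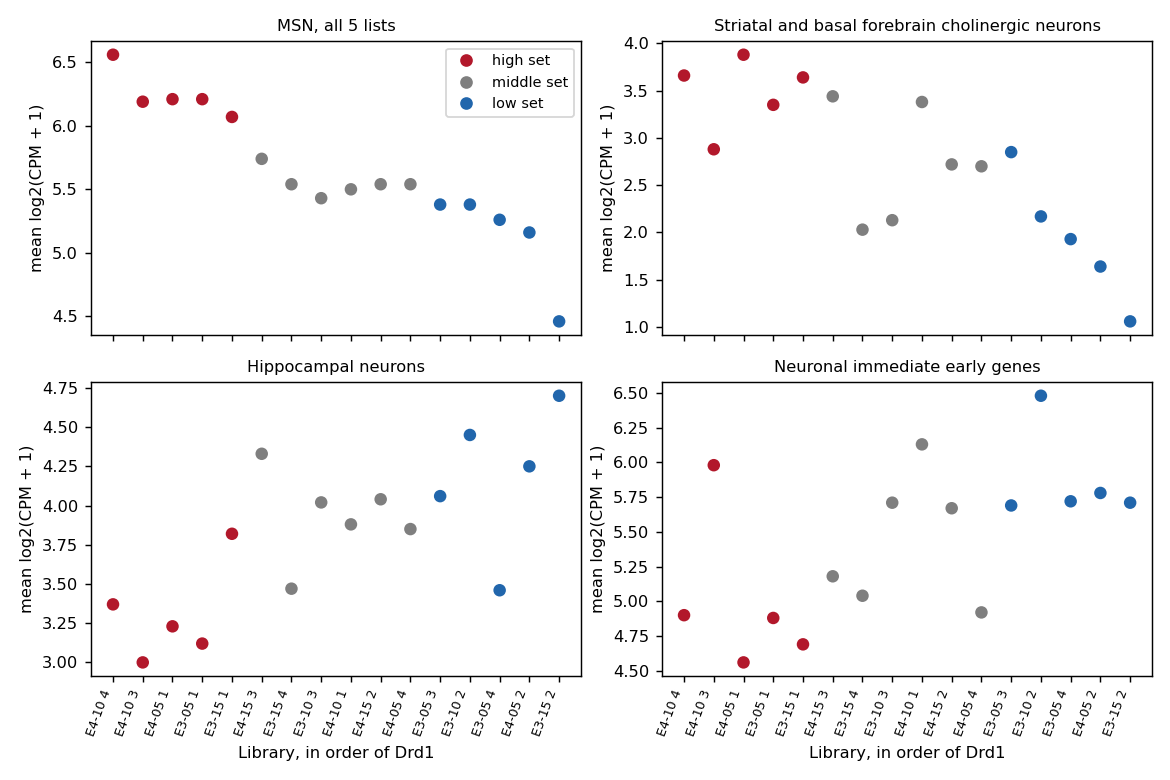
Mean log2(CPM + 1) of 4 gene lists in each of the 16 libraries, in descending order of Drd1, coloured by high, middle and low set. MSN genes fall with Drd1 down to 4.46 in E3-15 library 2, hippocampal genes span 3.00 to 3.82 in high and 3.46 to 4.70 in low libraries, and for immediate early genes E4-10 library 3 stands at 5.98 among high libraries at 4.56 to 4.90.

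Neuronal immediate early genes, induced within minutes by synaptic activity, all had a log2 fold change below 0, 12 of 12, beside 50.3% of all genes. The median was -0.77. The test called 0 of them (7 at an unadjusted p under 0.05, DESeq2 2, limma-voom 1). Fos had 26.5, 37.1, 16.1, 14.1 and 22.4 CPM in the high set, and 39.4, 71.6, 63.6, 43.0 and 42.6 CPM in the low set (-1.15, SE 0.26, edgeR adjusted p = 0.0570), with no overlap. In E4-10 library 3 the list's mean log2(CPM + 1) was 5.98, and in the other high libraries 4.56 to 4.90. When that library was left out, 8 of the 12 were called lower. When any other single library was left out, 0 or 1 were called. Without the libraries high in Hbb-bs 0 were called, with a median of -0.53. With the library number as a block the median was -0.25, with 3 of the 12 above 0. Each low library had a mean of at least 5.69.

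Of the glial and vascular lists, those of astrocytes and of mural cells and meningeal fibroblasts lay mostly below 0. Gfap, the intermediate filament of astrocytes, had 175, 101, 183, 108 and 182 CPM in the high set, and 267, 241, 204, 253 and 240 CPM in the low set. It was the 1 astrocyte gene of 16 called (-0.70, SE 0.16, edgeR adjusted p = 0.0490), beside 0.335% of all genes called lower. Of the 16, 14 were below 0, beside 50.3% of all genes, with a median of -0.17. At an unadjusted p under 0.05 there were 8 lower. DESeq2 called 4 lower, beside 1.23% of all genes, and limma-voom 2, beside 0.313%. Of 13 genes tested of mural cells and meningeal fibroblasts, 11 were below 0, beside 50.3% of all genes, with a median of -0.22. Of these 13, edgeR called 1 lower, beside 0.335% of all genes, which is Dcn (3 at an unadjusted p under 0.05, DESeq2 2, limma-voom 1). Medians were 0.01 over 20 myelin genes, 0.11 over 14 microglial genes and 0.01 over 12 endothelial genes. Members above 0 numbered 10, 13 and 7, in the same order, beside 49.7% of all genes. In each of these 3 lists edgeR called 0, as did DESeq2, and 0 had an unadjusted p under 0.05. Red cell genes had a median of 2.75, and of 0.05 without the 2 libraries high in Hbb-bs. Pituitary genes had a median of -5.61, with a mean log2(CPM + 1) of 7.07 in E3-05 library 4 and at most 2.00 in the other low libraries. For the 8 genes of the series title (Apoe, Asxl1, Nr1h3, Nr1h2, Abca1, Abcg1, Trem2 and Srebf1) the median was -0.02, and edgeR and DESeq2 called 0, with 1 at an unadjusted p under 0.05. Apoe averaged 971 ± 83.7 CPM in the high set and 1033 ± 129 CPM in the low set, and Asxl1 61.9 ± 2.70 CPM in the high set and 58.9 ± 1.72 CPM in the low set (SD, n = 5 each).

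The sets did not fall evenly over the labels. E4 libraries made up 3 of the high set and 1 of the low set, and E3 libraries 2 of the high set and 4 of the low set. Libraries numbered 1 gave 3 of the high set and 0 of the low set, and libraries numbered 2 gave 0 of the high set and 3 of the low set. Over all 16 libraries the log2(CPM + 1) of Drd1 was 5.68 ± 0.80 for the 8 E4 libraries, set against 5.12 ± 0.87 for the 8 E3 libraries (mean ± SD). The difference was 0.56. For the time codes, 10 minus 05 was 0.36, 15 minus 05 was -0.26 and 15 minus 10 was -0.62. Columns with a remainder of 1 against 2 after division by 3 differed by -0.33. As Drd1 ranked the libraries, these differences are a description, and each was smaller than the SD of either side. With E code and time code as terms in the fit, 88 genes were higher (0.483%) and 24 lower (0.132%) in the high set, with 31 of the 52 MSN genes called.

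January, April and May, as months in the titles, held all 5 high libraries, and only January (2 high, 1 low) and May (1 high, 1 low) held libraries of both sets. A fit with month as a term, added after the data were seen, rests on those 5 libraries and called 12 genes higher (0.0659%) and 1 lower (0.00549%). In it the 200 genes called higher all remained above 0 and the 61 called lower all below 0. Among MSN genes 6 were called, with a median log2 fold change of 1.34. For libraries of the other months, month and set cannot be told apart.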

How the data were processed

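Polyadenylated RNA of mouse brain was extracted with TRIzol, made into NEBNext Ultra libraries and sequenced on an Illumina NovaSeq instrument, per the labels' protocols. The authors deposited 1 table of unnormalized read counts, 40836 genes by 24 libraries. HISAT2 2.1.0, featureCounts 2.0.6 and mm39 are named in the submitters' processing notes; annotation and strand setting are not given in the sources used here. Libraries were joined to columns by the number in their labels. Between 66.7% and 70.7% of counts from 1 to 19 were even. The cause was not tested, and counting error may be larger than the totals imply.

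The high and low sets were compared with edgeR 4.0.16 in R 4.3.3 (TMM, filterByExpr, quasi-likelihood test, 8 residual degrees of freedom, Benjamini-Hochberg adjusted p under 0.05), leaving out Drd1. DESeq2 1.42.0 and limma 3.58.1 (voom) were alternatives. Libraries, 34 lists and named genes were chosen with earlier results of these data known. Named genes were MSN members, the 12 largest called changes a direction without overlap at a mean of at least 1 CPM, up to 4 called members of each other list (or the 2 of smallest p), and the genes of the title. List levels are means of log2(CPM + 1). Some genes that this rule selects are not reported here.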

Additional observations from a re-analysis of the deposited data

Results flagged for a closer look

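Within a set of 5 libraries, 12 of 78 values tested lay far from the others by the gap between the end library and its neighbour. Chance flags about 1 in 20 groups, but several of these values share genes and libraries (Adora2a and Penk belong to the indirect-pathway list), so the count is not set against it. Drd1, which chose the libraries, was left out. Values are log2(CPM + 1), or the mean of it over a list. In the high set E4-10 library 4 was above the others for the indirect-pathway list (6.59, others 5.93 to 6.07), Adora2a (7.60, others 6.76 to 6.99) and Penk (9.54, others 8.89 to 9.06). E4-10 library 3 was above them for immediate early genes (5.98, others 4.56 to 4.90).

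In the low set E3-15 library 2 was below the others for Adora2a (2.12, others 5.01 to 5.70), Penk (5.40, others 7.30 to 8.02), the MSN signalling list (6.61, others 7.30 to 7.48) and the indirect-pathway list (2.92, others 4.52 to 4.91). The same library was above the others for the cerebellum and hindbrain list (1.62, others 0.76 to 0.99). E3-05 library 4 was above the others for pituitary genes (7.07, others 0.61 to 2.00) and red cell genes (2.37, others 0.96 to 1.18). E3-10 library 2 was above them for immediate early genes (6.48, others 5.69 to 5.78).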

How the results depend on the processing

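The 261 calls (200 higher, 61 lower) became 630 with DESeq2 (405 and 225), 165 with libraries ranked by Adora2a (139 and 26), 112 with E and time codes as terms (88 and 24), 76 without the libraries high in Hbb-bs (66 and 10), 45 at an adjusted p under 0.01 (38 and 7) and 13 with month as a term (12 and 1). Without the library high in Gh the lower calls were 95. With the top 8 against the bottom 8, edgeR called 0, 0 higher and 0 lower (1664 at an unadjusted p under 0.05, smallest adjusted p 0.0842). Leaving out 1 library at a time gave 116 to 386 calls, 93 to 258 higher and 23 to 128 lower. Totals moved by over 1.5 times without E3-05 library 1 (146), E4-05 library 2 (130), E3-10 library 2 (159), E4-10 library 4 (116) and E3-15 library 2 (159). The cause of these moves was not tested.

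With the library number as a replicate block 2 genes were called higher and 0 lower (1643 at an unadjusted p under 0.05). Only numbers 3 and 4 occur in both sets, number 1 being in the high set alone and number 2 in the low set alone. The 2 same-numbered pairs of a high and a low library had correlations of deviations of -0.339 and -0.00382. The 23 other pairs had a median of 0.0458. With only 2 such pairs, both of unlike E and time codes, the check cannot tell whether a number pairs libraries. It leaves out pairs within a set, such as E3-05 library 1 and E4-05 library 1, the 2 high in Hbb-bs. The Drd1 differences over the labels are a description. Time code 15 minus 05 was 0.15 without E3-15 library 2. Over single left-out libraries the difference E4 minus E3 was 0.32 to 0.73, time code 10 minus 05 was 0.08 to 0.58, 15 minus 05 was -0.48 to 0.15, 15 minus 10 was -0.84 to -0.21, and remainder 1 minus 2 was -0.56 to -0.08. With 5 libraries a set, genes that did not pass are not shown to be equal.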

Other observations

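Some gene lists spread widely within a set. Choroid plexus genes had a mean log2(CPM + 1) of 1.85 in E4-10 library 3 and 2.40 in E4-05 library 1, and 4.64 to 4.87 in the other 3 high libraries, against 2.90 to 4.66 in the low set. Their median log2 fold change was 0.17. Myelin genes stood at 8.02 in E3-15 library 1 and at 7.01 to 7.57 in the rest of the high set, against 7.28 to 7.62 in the low set. Thalamic and habenular genes were highest of the 16 libraries in the middle set: E4-05 library 4 had means of 6.86 and 4.02, and E3-10 library 3 had 6.55 and 4.23, thalamic value first. In these 2 libraries Gata3 had 14.5 and 11.3 CPM.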
